A study of Mus musculus with 4 samples.

Results

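The 9 genes Ptch1, Boc, Cdon, Gas1, Smo, Sufu, Gli1, Gli2 and Gli3, the core of the Hedgehog pathway from receptor to transcription factor, were picked by gene symbol from the 57126 features counted in single cells of the mouse cerebral cortex. All 9 had counts in each of the 4 libraries. The libraries came from 1 P0 knockout mouse, 1 P0 wild-type mouse, 1 E14.5 mouse labelled knockout and 1 E14.5 wild-type mouse, P0 being the day of birth and E14.5 mid-neurogenesis. Knockout mice lack Tsku (TSK in the labels), the gene of Tsukushi, a secreted small leucine-rich proteoglycan. The labels give neither the strain nor the sex nor the allele, so a group is 1 animal, age, genotype and library at once, and what belongs to the genotype cannot be told apart from what belongs to the animal.

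After removal of barcodes with under 500 counts, under 300 genes or over 10% mitochondrial counts, 1436, 1047, 4107 and 620 barcodes remained in the P0 knockout, P0 wild-type, labelled E14.5 knockout and E14.5 wild-type libraries, with 8894856, 6042033, 14404051 and 5606381 counts. Tsku had 0 counts in the P0 knockout library and 42 in the P0 wild-type library, but 74 in the library labelled E14.5 knockout and 54 in E14.5 wild type, so the counts go against the E14.5 label. Xist had 6719 counts in the library labelled E14.5 knockout and at most 3 in any other, while the Y-linked Ddx3y had 1 count there and 496 in E14.5 wild type, so the E14.5 animals also differ in sex. The libraries shared at most 2 barcodes with each other.

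Hedgehog ligands bind Ptch1 together with one of the coreceptors Boc, Cdon and Gas1. Bound Ptch1 no longer holds back the membrane protein Smo, which then, at the primary cilium, releases the Gli transcription factors from Sufu. Gli2 acts chiefly as an activator, Gli3 chiefly as a repressor once it is cleaved, and Gli1 is an activator and itself a target gene, as are Ptch1 and the decoy receptor Hhip, so that Gli1, Ptch1 and Hhip transcripts are the usual readout of the pathway. In the embryonic forebrain the pathway is best known for ventral patterning, in which Gli3 protects dorsal, cortical identity.

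The promoters of 2 of these readout genes, Ptch1 and Hhip, and of Gli2 are shown because the readout genes were higher in P0 radial glia in both comparisons of age, and Gli2 was lower between the libraries labelled knockout. RefSeq promoter windows of build GRCm38.p6 were at hand for the 9 genes other than Gli1 and Boc, and for Hhip, while the submitters' processing notes name GRCm39 for the counts. The 250 bases before each annotated start are printed 5′ to 3′ on the gene's own strand, in lower case, with capitals for the core CCACCC of the Gli binding motif or its reverse complement GGGTGG.
Ptch1, chr13:63565736-63565985, minus strand: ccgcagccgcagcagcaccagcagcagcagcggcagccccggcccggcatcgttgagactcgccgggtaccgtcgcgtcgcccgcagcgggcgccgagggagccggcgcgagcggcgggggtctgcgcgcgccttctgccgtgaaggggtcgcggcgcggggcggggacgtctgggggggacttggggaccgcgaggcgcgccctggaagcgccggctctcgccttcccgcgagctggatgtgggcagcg
Hhip, chr8:80058009-80058258, minus strand: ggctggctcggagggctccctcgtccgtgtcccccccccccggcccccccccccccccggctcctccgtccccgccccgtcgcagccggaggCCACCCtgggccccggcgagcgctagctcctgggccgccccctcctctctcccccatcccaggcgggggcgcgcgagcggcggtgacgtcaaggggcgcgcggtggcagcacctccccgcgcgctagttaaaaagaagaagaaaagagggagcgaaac
Gli2, chr1:119053620-119053869, minus strand: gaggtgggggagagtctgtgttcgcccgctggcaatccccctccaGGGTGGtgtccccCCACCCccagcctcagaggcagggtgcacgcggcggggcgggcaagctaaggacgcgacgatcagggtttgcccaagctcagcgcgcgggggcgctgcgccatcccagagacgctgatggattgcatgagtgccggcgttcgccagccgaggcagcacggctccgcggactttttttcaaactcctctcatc
The longer Gli motif GACCACCCA, searched on both strands, lay in none of the 8 windows of 300 bases, against 0.253% of 32851 RefSeq windows. Its core CCACCC, also on both strands, lay in the windows of Gli2, Gli3, Smo and Hhip and in 31.5% of all windows. The Ptch1 window held neither. These letters describe 1 short window at each gene and nothing about binding elsewhere.

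Barcodes were sorted into cell classes by markers that hold none of the 9 genes, counted in a copy of each barcode thinned to 1500 counts. The radial glia gate needed at least 5 of 14 markers, of which Fabp7 had the most counts. At P0 it included cells with astrocyte markers. It held 420 P0 knockout, 230 P0 wild-type, 563 labelled E14.5 knockout and 69 E14.5 wild-type barcodes. Levels below are counts per 1000000 summed counts of a gate (CPM), with exact 95% Poisson intervals in parentheses. Intervals cover counting error only, not differences between animals, and with 1 animal a group no test across animals was possible. A gene is called here when 2 sums with at least 30 of its counts between them differ at least 2-fold. A sparse gene can reach those 30 counts through the higher sum alone, and this holds for all features too. CPM of this kind are not corrected for gene length, so levels are compared within a gene, never between genes.

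The pathway genes were concentrated in radial glia. Relative to all other barcodes of the same library, 8 of 9 were called higher in radial glia of P0 knockout, 8 of 9 in P0 wild type and 6 of 8 measurable in the library labelled E14.5 knockout. E14.5 wild type had 7 of 8 measurable called higher. In the same order, 13.5%, 14.5%, 11.5% and 12.9% of all features were called higher, the background for these counts. The median log2 ratio of the measurable members was 2.68, 2.67, 2.29 and 1.99 in that order, beside medians over all features between -0.039 and 0.033. Sufu was the gene not called in any library, and Ptch1 the other one missed in the library labelled E14.5 knockout. Gli1 fell short of 30 counts in both E14.5 libraries.

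**Figure D1:**
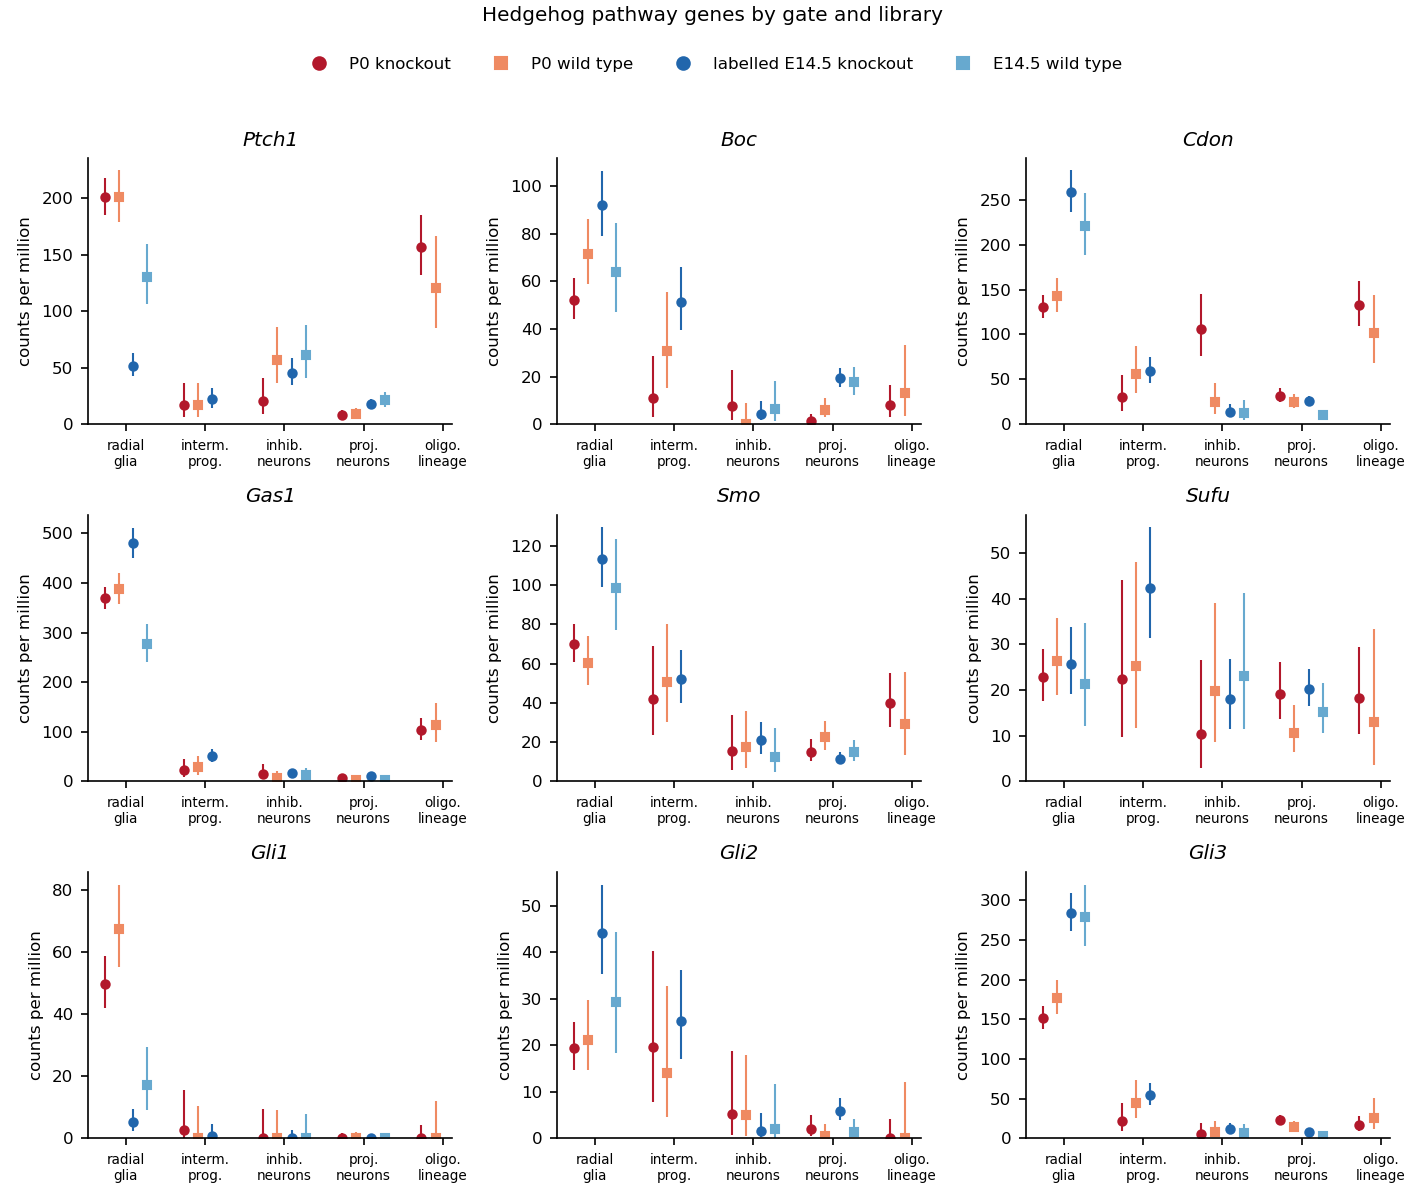
CPM (linear axes from 0) of each gene in 5 gates, with 1 point per library and exact 95% Poisson intervals; gates with under 50 barcodes are left out. Radial glia stand above projection neurons for every gene but Sufu, and above inhibitory neurons too, except that Ptch1 in the library labelled E14.5 knockout, Cdon in P0 knockout, Gli2 at P0 and the sparse Gli1 of that E14.5 library have overlapping intervals. Ptch1 and Cdon are also high in the oligodendrocyte lineage, and Cdon in inhibitory neurons is higher in P0 knockout than in the other 3 libraries.

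Ptch1, the receptor, stood at 201 CPM (185 to 218) in P0 knockout, 201 CPM (179 to 224) in P0 wild type, 51.9 CPM (42.3 to 63.0) in the library labelled E14.5 knockout and 130.4 CPM (106 to 159) in E14.5 wild type radial glia. Projection neurons had 7.82 CPM in P0 knockout, 9.0 in P0 wild type, 18.4 in the library labelled E14.5 knockout and 21.3 in E14.5 wild type. Inhibitory neurons had 20.8 CPM in P0 knockout, 57.0 in P0 wild type, 45.7 in the library labelled E14.5 knockout and 60.8 in E14.5 wild type, and in the library labelled E14.5 knockout that interval overlapped the one of radial glia. In radial glia the P0 libraries differed by less than counting error and both lay above both E14.5 libraries, whose own intervals did not overlap. At matched depth of 1500 counts, 23.8% of P0 knockout and 19.6% of P0 wild-type radial glia had a Ptch1 count. Among projection neurons the shares were 0.274% and 0.901%, in which free RNA and RNA of the neurons were not separated. In E14.5 the thinned shares were 7.10% in the library labelled knockout and 13.0% in wild type, against 1.80% and 2.99% of projection neurons. Radial glia thus lay above projection neurons in every library by this share. Median depths were 5850.5 and 5764.5 counts in P0 radial glia against 4877 and 4571 in projection neurons, and without thinning the P0 shares were 55.5% and 52.6% against 4.38% and 4.20%. Microglia, a class of another lineage, had 58.4 CPM (35.2 to 91.2) in P0 knockout from 19 counts in 44 barcodes, of which 1 barcode held 26.3%.

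Among the coreceptors, Gas1, a membrane-anchored protein, stood at 369 CPM (347 to 392) in P0 knockout, 388 CPM (358 to 420.1) in P0 wild type, 479.7 CPM (449 to 512) in the library labelled E14.5 knockout and 277 CPM (240.4 to 317) in E14.5 wild type radial glia. The library labelled E14.5 knockout was highest and E14.5 wild type lowest, with the P0 libraries, whose intervals overlapped, between them. Radial glia held 83.6% of all Gas1 counts in P0 knockout and 79.7% in P0 wild type. Cdon, a coreceptor of the immunoglobulin superfamily, had 131 CPM in P0 knockout, 143 in P0 wild type, 259 in the library labelled E14.5 knockout and 221 in E14.5 wild type in radial glia. Both E14.5 libraries were above both P0 libraries with no overlap of intervals between ages. Boc, the close relative of Cdon, had 52.3 CPM in P0 knockout, 71.4 in P0 wild type, 91.9 in the library labelled E14.5 knockout and 63.9 in E14.5 wild type in radial glia and few counts in projection neurons at P0, 3 in P0 knockout and 11 in P0 wild type. In intermediate progenitors of E14.5, the dividing daughters of radial glia, Boc reached 51.5 CPM (39.4 to 66.2) in the library labelled knockout and 81.7 CPM (56.3 to 115) in wild type. In E14.5 wild type the intervals of both classes overlapped, with 48 intermediate progenitors measured.

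Smo, the signal transducer, was at 69.9 CPM (60.7 to 80.2) in P0 knockout, 60.5 CPM (48.9 to 74.0) in P0 wild type, 114 CPM (99.0 to 129.5) in the library labelled E14.5 knockout and 98.5 CPM (77.3 to 124) in E14.5 wild type radial glia. Neurons had less, for instance 15.2 CPM (10.3 to 21.5) in projection neurons of P0 knockout and 22.5 CPM (16.1 to 30.6) in those of P0 wild type. Smo was not only a radial glia gene: meningeal fibroblasts of the library labelled E14.5 knockout had 145 CPM (111 to 186) in 93 barcodes. Sufu, the inhibitor that tethers Gli proteins, had the smallest ratio of radial glia to other barcodes in every library among the genes with a ratio, 0.34, 0.78, 0.33 and 0.20 on the log2 scale. It had 22.7 CPM in P0 knockout, 26.4 in P0 wild type, 25.7 in the library labelled E14.5 knockout and 21.3 in E14.5 wild type in radial glia. Projection neurons had 19.1 CPM in P0 knockout, 10.7 in P0 wild type, 20.2 in the library labelled E14.5 knockout and 15.3 in E14.5 wild type. Among gates of over 50 barcodes its highest levels were 45.1 CPM (27.1 to 70.4) in meningeal fibroblasts and 42.2 CPM (31.3 to 55.7) in intermediate progenitors, both in the library labelled E14.5 knockout. At 1500 counts per barcode, 2.86% of P0 knockout and 3.04% of P0 wild-type radial glia had a Sufu count, against 2.74% and 2.10% of projection neurons. The intervals of the Sufu level in radial glia and projection neurons overlapped in every library but P0 wild type.

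Gli1, the target and activator, was the most confined of the 9 at P0: radial glia held 88.0% of its counts in P0 knockout and 91.3% in P0 wild type, from 29.2% and 22.0% of the barcodes. Its level there was 49.9 CPM (42.2 to 58.7) in P0 knockout, 67.5 CPM (55.2 to 81.8) in P0 wild type, 5.14 CPM (2.46 to 9.45) in the library labelled E14.5 knockout and 17.3 CPM (9.21 to 29.6) in E14.5 wild type. Projection and inhibitory neurons at P0 had 0 counts in both libraries, which for projection neurons allows up to 1.47 CPM in knockout and 1.69 CPM in wild type at 3 counts. Outside radial glia, the few Gli1 counts of P0 knockout included 7 in 14 meningeal fibroblasts and 4 in 44 microglia. At E14.5 the whole library labelled knockout had 21 Gli1 counts and E14.5 wild type 18, of which meningeal fibroblasts held 5 and 4.

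Gli2, the main activator, had 19.4 CPM in P0 knockout, 21.2 in P0 wild type, 44.2 in the library labelled E14.5 knockout and 29.3 in E14.5 wild type in radial glia, with 57, 33, 86 and 22 counts behind these levels. Intermediate progenitors of the library labelled E14.5 knockout came next with 25.3 CPM (17.1 to 36.2), against 44.2 CPM (35.3 to 54.6) in radial glia of that library. Gli3, the repressor, had 152 CPM (138 to 166) in P0 knockout, 177 CPM (157 to 199) in P0 wild type, 284 CPM (261 to 309) in the library labelled E14.5 knockout and 279 CPM (243 to 319.9) in E14.5 wild type radial glia. The E14.5 libraries differed from each other by less than counting error and both lay above the P0 libraries. In ganglionic eminence progenitors, a ventral class that counted 185 barcodes in the library labelled E14.5 knockout, Gli3 was at 73.3 CPM (53.5 to 98.1), below the 284 CPM of its radial glia.

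Within radial glia, Ptch1 was lower in cells with cortical identity. Radial glia with at least 2 of 6 cortical markers (Emx1, Emx2, Pax6, Neurog2, Eomes and Lhx2) in the library labelled E14.5 knockout had Ptch1 at 22.2 CPM (13.9 to 33.6), against 82.7 CPM (65.5 to 103) in those without, a log2 ratio of -1.90 (-2.65 to -1.20). In E14.5 wild type the values were 14.3 CPM (2.95 to 41.9) with the markers and 175 CPM (142 to 214) without, from 26 and 43 barcodes, a log2 ratio of -3.61 (-5.92 to -2.02). At P0 the ratios were -0.73 in P0 knockout and -0.68 in P0 wild type, with 134 and 139 CPM in the cells with cortical markers. Ptch1 was lower in cells with cortical markers in all 4 libraries and under every alternative run, though its size moved: it ranged from -2.96 to -1.42 in the library labelled E14.5 knockout, and from -3.93 to -1.45 in E14.5 wild type, where it rests on 3 counts with the markers. The difference between the ages was not tested.

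**Figure D2:**
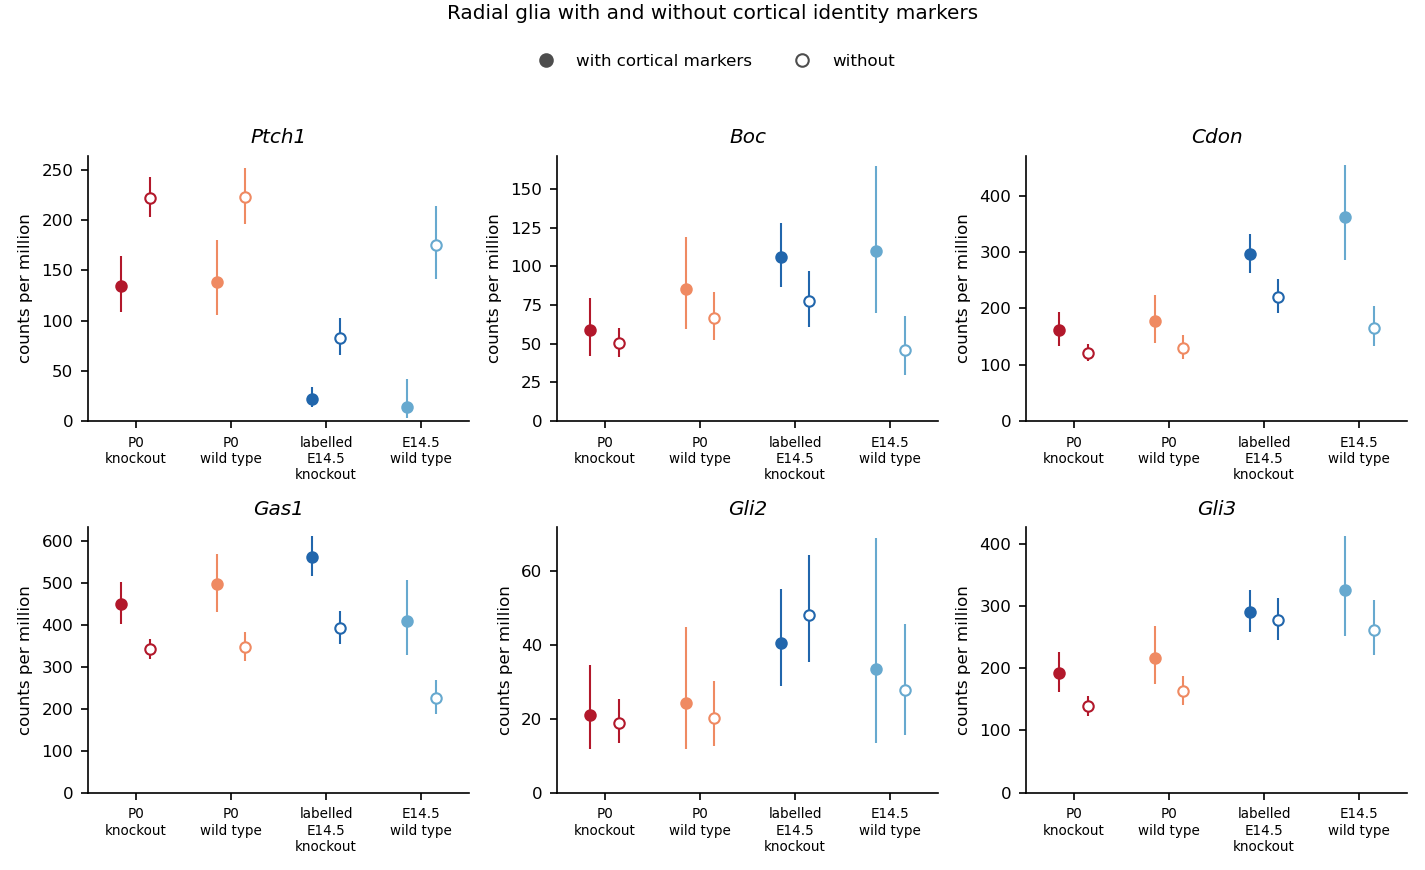
CPM (linear axes from 0) of 6 genes in radial glia with (filled) and without (open) at least 2 cortical markers, by library, with exact 95% Poisson intervals. Ptch1 is lower and Cdon and Gas1 are higher with cortical markers in all 4 libraries.

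Gas1 and Cdon went the other way. Gas1 was higher with cortical markers by 0.39, 0.51, 0.52 and 0.87 on the log2 scale in P0 knockout, P0 wild type, the library labelled E14.5 knockout and E14.5 wild type, and Cdon by 0.41, 0.45, 0.43 and 1.13, with no interval of either gene including 0. Boc, the third coreceptor, was at 0.23 (-0.32 to 0.75) in P0 knockout, 0.36 (-0.26 to 0.96) in P0 wild type, 0.45 (0.0077 to 0.90) in the library labelled E14.5 knockout and 1.25 (0.37 to 2.13) in E14.5 wild type. Both of its P0 intervals included 0, and it was at -0.13 in P0 knockout after thinning. Called members numbered 0 of 9 in P0 knockout (background 6.32%), 0 of 9 in P0 wild type (5.58%) and 2 of 8 in the library labelled E14.5 knockout (3.18%), whereas E14.5 wild type had 3 of 6 (15.2%). In the library labelled E14.5 knockout these were Ptch1, lower, and Sufu, higher by 1.03 (0.14 to 1.99) from 34 and 16 counts, a call lost under 5 alternatives, for example at 0.20 with another seed for the thinning. In E14.5 wild type they were Ptch1, lower, with Boc (1.25) and Cdon higher, both under 2-fold with the stricter filter on barcodes (0.73 and 0.87). The ventral gene Nkx2-1 was at 1.01 CPM with cortical markers against 23.0 without in the library labelled E14.5 knockout, and at 0 against 31.4 in E14.5 wild type. At P0 the astrocyte gene Aqp4 was at 211 CPM with them against 386 without in knockout, and at 202 against 232 in wild type. Eomes, a marker of intermediate progenitors and itself 1 of the 6 cortical markers, was at 469.9 CPM with the markers against 22.9 without in P0 knockout and 307 against 0.874 in P0 wild type. At E14.5 it was at 319.6 against 12.6 in the library labelled knockout and 883 against 1.84 in wild type. Fabp7, the radial glia marker, was lower with cortical markers in all 4 libraries, for example at 2282 against 6449.8 CPM in E14.5 wild type. The part of these differences in the contrasts of Ptch1, Gas1, Cdon and Boc was not tested.

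At P0, Cdon also varied with astrocyte markers. Radial glia with at least 5 of 13 astrocyte markers had 88.1 CPM of Cdon in P0 knockout, against 198 in the remaining radial glia outside the cell cycle, and 61.5 against 305 in P0 wild type, log2 ratios of -1.17 (-1.51 to -0.83) and -2.31 (-2.80 to -1.83). Cdon was the 1 member called in each library, where 15.9% of features were called in P0 knockout and 15% in P0 wild type. The ratio depended on how the gate was set: with markers counted in full rather than thinned barcodes it was 0.40 in P0 knockout and -0.73 in P0 wild type, and with another seed or TMM scaling it was -0.94 and -0.99 in P0 knockout, so neither call holds under every setting. The Gas1 ratio was -0.30 (-0.51 to -0.085) in knockout, where the unthinned gate gave 0.046, and -0.89 (-1.17 to -0.61) in wild type. Gli3 had 172 against 115 CPM in knockout (log2 ratio 0.59, 0.23 to 0.96) and 197 against 153 CPM in wild type (log2 ratio 0.37, -0.075 to 0.84). Ptch1 had 195 and 176 CPM in astrocyte-marker cells of knockout and wild type against 166 and 178 in the others, with both ratios' intervals including 0. With the gate set on unthinned counts, Gli3 was at 1.76 in knockout and 1.49 in wild type, Ptch1 at 0.78 and 1.17, and Gli1 at 2.90 and 0.75, the knockout value resting on 1 count in the other cells. Which members pass 2-fold between these kinds of cell therefore changes with the gate. Cells with at least 4 of 15 cycling markers were taken out of the others but not out of the astrocyte-marker cells. Mki67 was at 286 CPM in astrocyte-marker cells against 110 in the others in P0 knockout, and at 305 against 256 in P0 wild type. The part of this in the ratios was not tested. Cycling radial glia had the highest Ptch1 of the 3 kinds, 289 CPM (239 to 346) in P0 knockout and 310.3 CPM (249 to 383) in P0 wild type, with 22.4% and 24.1% of those counts in a single barcode each.

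The oligodendrocyte lineage at P0, gated on Pdgfra, Olig1, Olig2, Sox10 and related genes, carried Ptch1 and few or no counts of Gli1 and Gli2. Gli1 and Gli2 had 0 counts in 148 P0 knockout barcodes and 0 in 52 P0 wild-type barcodes, where 3 counts would be 3.40 and 9.80 CPM. Against radial glia of the same library, and taking those 3 counts as the floor, Gli1 was at least 14.7-fold lower in P0 knockout and at least 6.90-fold lower in P0 wild type. The bounds for Gli2 were 5.68-fold and 2.17-fold. These zeros belong to the gate as set. With another seed for the thinning the lineage had 4 Gli1 and 2 Gli2 counts in P0 knockout and 0 and 0 in P0 wild type. With the gates set on unthinned counts it had 17 and 4 in P0 knockout and 10 and 5 in P0 wild type. On the log2 scale Gli1 was at -3.87 in P0 knockout and -2.79 in P0 wild type with the floor of 3 counts. With the unthinned gates it was at -1.76 and -1.64, lower in the lineage each time. Gli2 in P0 wild type was at -1.12 with that floor, but just within 2-fold with the unthinned gates, and at -0.98 without the barcode with most counts. Ptch1, by contrast, was at 157 CPM (132 to 185) in the lineage of P0 knockout against 201 CPM (185 to 218) in radial glia, and at 121 CPM (85.1 to 167) against 201 CPM (179 to 224) in P0 wild type, log2 ratios of -0.36 (-0.64 to -0.09) and -0.73 (-1.27 to -0.24). With the gates set on unthinned counts these ratios were 0.35 and 0.63, so the direction depends on the gate while both values stay within 2-fold. A Ptch1 count was found in 25.7% and 15.4% of thinned lineage barcodes, close to the 23.8% and 19.6% of radial glia.

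Cdon too was about as high in the lineage as in radial glia, at 133 against 131 CPM in P0 knockout and 101 against 143 CPM in P0 wild type, and both ratios' intervals included 0. Gas1, Boc and Gli3 were lower. The log2 ratio of Gas1 was -1.84 (-2.16 to -1.53) and -1.76 (-2.30 to -1.27), that of Boc -2.72 (-4.06 to -1.64) and -2.45 (-4.35 to -1.05), and that of Gli3 -3.16 (-4.01 to -2.42) and -2.76 (-3.99 to -1.76), in P0 knockout and P0 wild type. Called lower in P0 knockout were 5 of 9, where 12.9% of features were: Gli3, Boc, Gas1 and, with 3 counts in place of 0, Gli1 and Gli2. In P0 wild type 7 of 9 were called lower (those 5 with Smo and Sufu), where 13.4% of features were. The Gli2 call in P0 wild type depends on the floor of 3 counts. Smo and Sufu rest on 9 and 4 lineage counts in P0 wild type, and with the unthinned gate they, and Gas1 in both libraries (-0.92 in knockout and -0.89 in wild type), came within 2-fold. This comparison was chosen with the values in view.

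**Figure D3:**
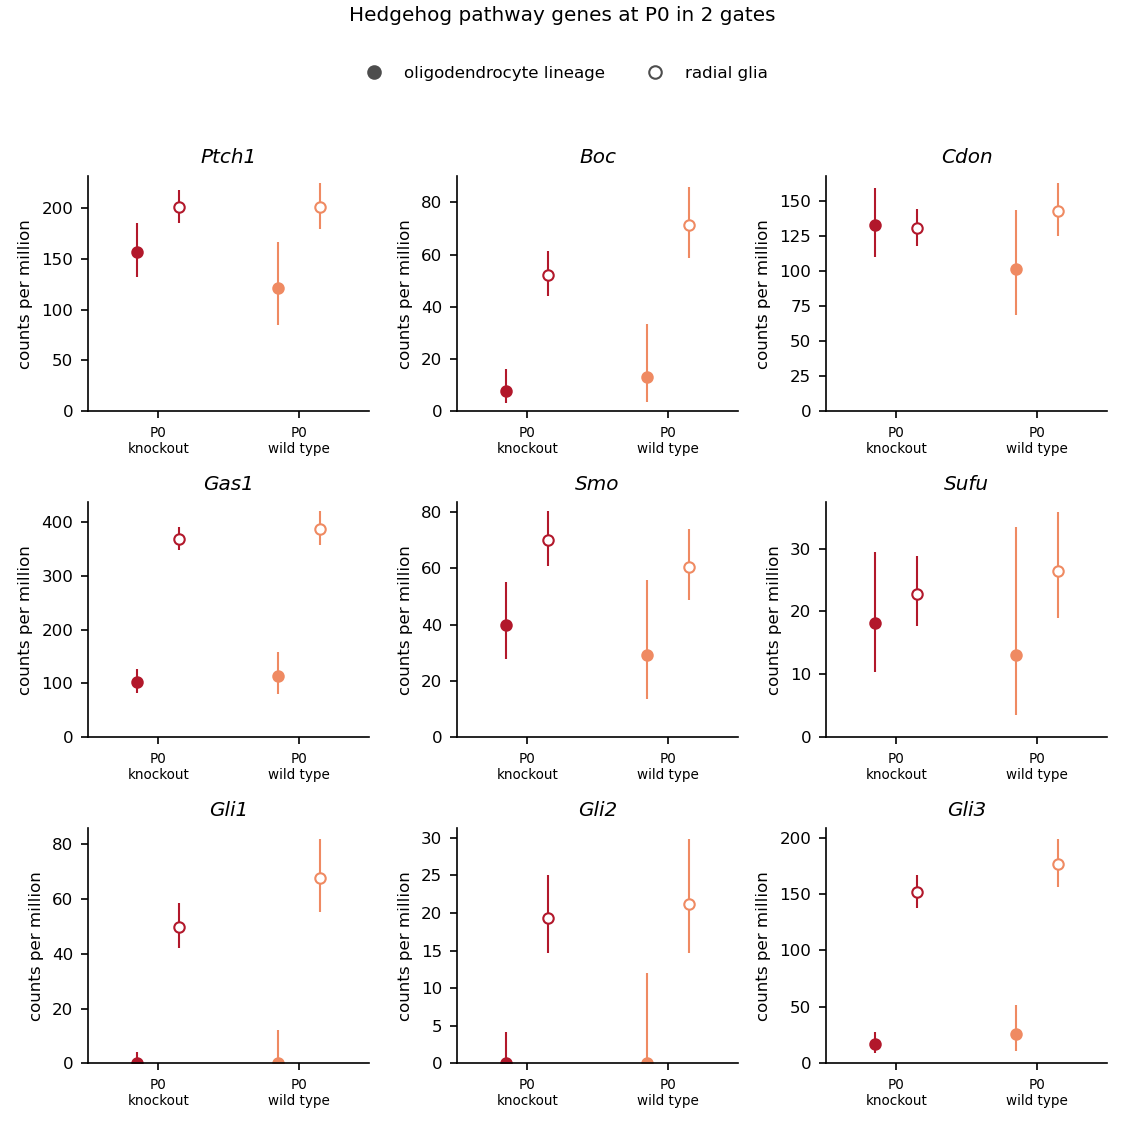
CPM (linear axes from 0) of the 9 genes at P0 in the oligodendrocyte lineage (filled) and radial glia (open) of the knockout and wild-type libraries, with exact 95% Poisson intervals. With this gate Gli1 and Gli2 are at 0 in the lineage in both libraries, while Ptch1 and Cdon come within 2-fold of their radial glia level.

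The readout genes were higher in radial glia at P0 than at E14.5 in both pairs of libraries, while Cdon, Smo and Gli3 were lower. The libraries labelled knockout differ in more than age. Ddx3y had 1190 counts at P0 and 1 at E14.5, so these animals differ in sex, and Tsku had 0 and 74 counts. What belongs to age cannot be told apart from these differences in any comparison of that pair. Gli1 was at 67.5 CPM in P0 wild type against 17.3 in E14.5 wild type, a log2 ratio of 1.97 (1.13 to 2.92) from 105 and 13 counts. Between the libraries labelled knockout it was at 49.9 CPM at P0 against 5.14 at E14.5, a log2 ratio of 3.28 (2.36 to 4.37). Ptch1 was higher at P0 by 0.62 (0.29 to 0.96) between the wild types and by 1.95 (1.65 to 2.27) between the libraries labelled knockout. Hhip, the decoy receptor and another readout gene, was at 32.8 against 3.99 CPM between the wild types (log2 ratio 3.04, 1.41 to 5.36, 51 and 3 counts) and at 24.4 against 6.68 CPM between the libraries labelled knockout (log2 ratio 1.87, 1.01 to 2.85). No interval of the 3 readout genes included 0 in either pair.

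Gli3 was lower at P0 in both pairs, with log2 ratios of -0.66 (-0.92 to -0.39) between the wild types and -0.90 (-1.09 to -0.72) between the libraries labelled knockout. Cdon had -0.63 (-0.93 to -0.33) and -0.99 (-1.18 to -0.79), and Smo -0.70 (-1.16 to -0.24) and -0.70 (-0.98 to -0.42), all 4 intervals below 0, though Smo between the wild types was at 0.46 after thinning. Gli2 was at -0.46 (-1.29 to 0.38) between the wild types, an interval that includes 0, and at -1.19 (-1.70 to -0.69) between the libraries labelled knockout. Boc and Gas1 pointed different ways in the pairs: Boc was at 0.16 (-0.34 to 0.68) and -0.81 (-1.13 to -0.50), and Gas1 at 0.49 (0.26 to 0.72) and -0.38 (-0.51 to -0.25), for the wild types and the libraries labelled knockout. Sufu had 0.31 (-0.56 to 1.24) and -0.18 (-0.73 to 0.38). Past 2-fold were 1 of 9 genes between the wild types (Gli1), where 14.2% of all features were, and 3 of 9 between the libraries labelled knockout (Gli1 and Ptch1 higher, Gli2 lower), where 23.3% were. These shares of members are not far from the background, and no result about the 9 genes as a group is read from them.

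**Figure D4:**
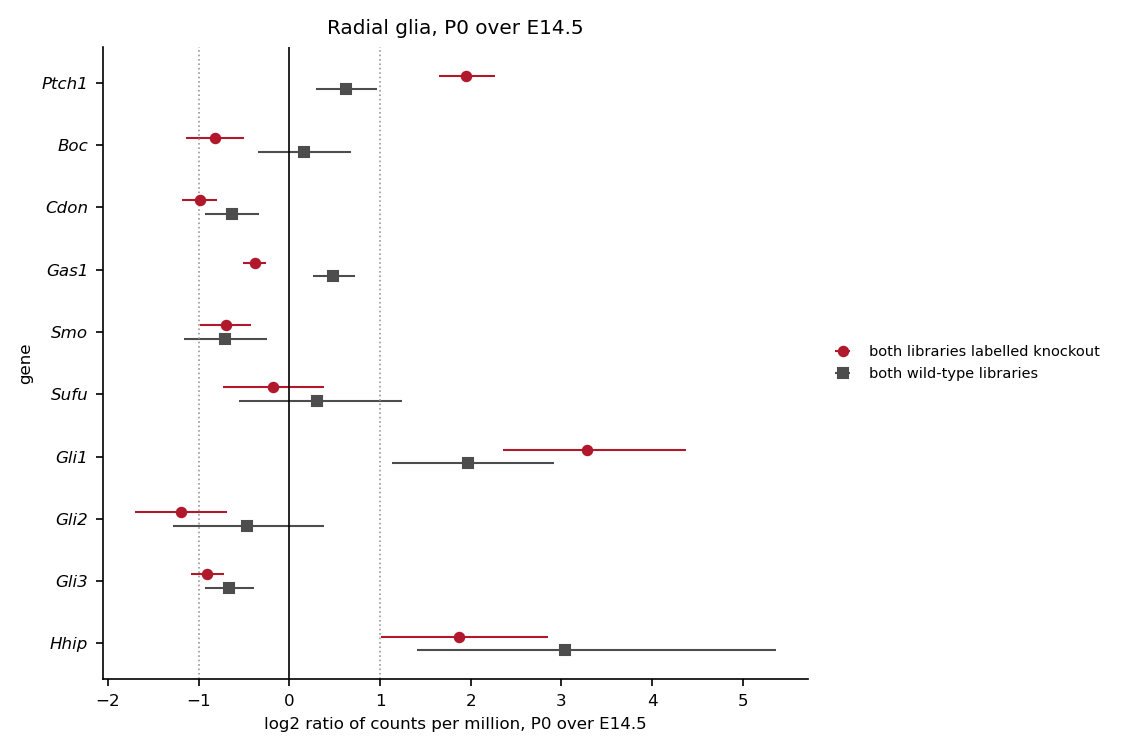
Log2 ratio of CPM in radial glia, P0 over E14.5, for the libraries labelled knockout (circles) and the wild types (squares), with 95% intervals from counting error and dotted lines at 2-fold. Gli1, Ptch1 and Hhip lie right of 0 in both pairs, and Cdon, Smo and Gli3 left of 0. The libraries labelled knockout also differ in sex and in counts of Tsku.

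Radial glia gates of the ages differ in makeup. Astrocyte-marker cells were 264 of 420 in P0 knockout and 141 of 230 in P0 wild type, against 6 of 563 in the library labelled E14.5 knockout, while E14.5 wild type had 4 of 69. Aqp4 was at 343 and 225 CPM at P0 against 3.60 and 2.66 at E14.5. Without astrocyte-marker and cycling cells, Gli1 was at 34.0 CPM (21.8 to 50.6) in P0 knockout and 77.7 CPM (51.2 to 113) in P0 wild type. It was at 5.13 CPM (1.40 to 13.1) in the library labelled E14.5 knockout and 17.9 CPM (7.72 to 35.2) in E14.5 wild type. With the gate set on unthinned counts, Gli1 in those cells of P0 knockout rests on 1 count. Aqp4 in those cells was at 19.8 CPM in P0 knockout and 63.3 in P0 wild type. At E14.5 it was at 3.85 CPM in the library labelled knockout and 2.24 in wild type. Ptch1 in those cells was at 166 and 178 CPM at P0 against 52.6 and 116 at E14.5. The Ptch1 intervals of the wild types then overlapped, and in E14.5 wild type 30.8% of the counts lay in 1 of 38 barcodes. Among radial glia with cortical markers, Ptch1 was at 134 CPM in P0 knockout against 22.2 in the library labelled E14.5 knockout (log2 ratio 2.60, 1.92 to 3.34), and at 139 CPM (105 to 180.0) in P0 wild type against 14.3 CPM (2.95 to 41.9) in E14.5 wild type, where only 26 barcodes had them. Gli1 in cells with cortical markers had 35 and 40 counts in the P0 knockout and wild-type libraries, against 3 and 0 in the E14.5 library labelled knockout and E14.5 wild type. The part of the makeup in the differences between ages was not tested.

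Over all barcodes of a library, which mixes levels per cell with the share of each class, Gli1 was higher at P0 by 2.57 (1.84 to 3.37) between the wild types and 3.69 (3.03 to 4.42) between the libraries labelled knockout. Gas1 was called between the wild types (log2 ratio 1.16, 0.97 to 1.36) and Ptch1 between the libraries labelled knockout (log2 ratio 1.46, 1.30 to 1.62). Those are 2 of 9 in each pair, against 11.2% and 19.1% of features. Radial glia made up 29.2% and 22.0% of barcodes at P0 against 13.7% and 11.1% at E14.5 in the knockout-labelled and wild-type libraries.

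In projection neurons Gli3 was higher at P0, 14.6 against 3.24 CPM between the wild types (log2 ratio 2.18, 0.93 to 3.62) and 22.5 against 8.04 between the libraries labelled knockout (log2 ratio 1.48, 0.84 to 2.14), whereas in radial glia it was lower. Boc was lower at P0, 6.19 against 17.6 CPM (log2 ratio -1.51, -2.62 to -0.51) and 1.47 against 19.4 CPM (log2 ratio -3.72, -6.03 to -2.13) in the same pairs. Ptch1 was lower too, with ratios of -1.24 (-2.16 to -0.39) and -1.23 (-2.10 to -0.45). Called were 4 of 6 measurable genes between the wild types (Gli3 and Cdon higher, Ptch1 and Boc lower), with a background of 9.86%, and 4 of 8 between the libraries labelled knockout (Gli3 higher, Gli2, Ptch1 and Boc lower), with 16.7%. Ptch1 was within 2-fold under some alternatives in both pairs, for example with another seed at -0.64 and -0.97. Several of these rest on under 30 counts in a gate, and Gli3 between the wild types reached 30 counts only through P0. The 4 of 6 and 4 of 8 are not read as rates. Free RNA from radial glia was not separated from RNA of the neurons.

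At P0 the knockout library showed no member called against wild type, neither over all barcodes (0 of 9, background 4.77%) nor in radial glia (0 of 9, background 4.59%). In radial glia Ptch1 stood at 201 CPM in P0 knockout and 201 CPM in P0 wild type, with an interval of the log2 ratio of -0.20 to 0.20. Gli1 was at 49.9 CPM (42.2 to 58.7) in P0 knockout and 67.5 CPM (55.2 to 81.8) in P0 wild type, a log2 ratio of -0.44 (-0.81 to -0.061), and Boc at 52.3 CPM (44.3 to 61.2) and 71.4 CPM (58.7 to 86.0), a log2 ratio of -0.45 (-0.81 to -0.084). Both lay below wild type by more than counting error and by less than 2-fold. The other ratios in radial glia lay between -0.22 for Gli3 and 0.21 for Smo, with intervals that reached 0. With every barcode thinned to 1500 counts, Smo was at -0.58, Cdon at -0.62, Gas1 at -0.30 and Ptch1 at 0.47, all within 2-fold but outside the counting intervals of the full sums. The median of the 9 was -0.13, beside 0.049 over all features.

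Gli1 was also compared within kinds of radial glia at P0. In astrocyte-marker cells Gli1 stood at 58.2 CPM (47.7 to 70.3) in knockout and 61.5 CPM (46.6 to 79.7) in wild type, a log2 ratio of -0.08 (-0.56 to 0.41). In the remaining cells outside the cycle it was at 34.0 CPM (21.8 to 50.6) and 77.7 CPM (51.2 to 113), a log2 ratio of -1.19 (-2.05 to -0.34), or -0.88 without the barcode with most Gli1 counts in each library, which in wild type held 29.6%. Boc in those cells was at -1.02 (-1.86 to -0.18), but came within 2-fold under 5 alternatives and was at -0.13 with all deposited barcodes. Together 2 of 7 measurable genes were called in these cells, against a background of 7.75%. The difference between the 2 kinds of radial glia was not itself tested. The remaining cells outside the cycle also differed in makeup between knockout and wild type. Aqp4 was at 19.8 against 63.3 CPM, Aldoc at 272 against 420, Fabp7 at 4603 against 6124 and Mki67 at 110 against 256. Eomes was higher in knockout, at 398 against 259 CPM. The part of this makeup in the Gli1 and Boc ratios was not tested.

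Over all barcodes, Ptch1 was at 97.6 CPM (91.2 to 104) in P0 knockout and 79.4 CPM (72.5 to 86.9) in P0 wild type (log2 ratio 0.30, 0.13 to 0.46), Cdon at 81.1 and 62.9 CPM (log2 ratio 0.37, 0.18 to 0.55, but -0.016 with every barcode thinned to 1500 counts), and Gas1 at 146 and 125 CPM (log2 ratio 0.22, 0.092 to 0.35). In radial glia the intervals of all 3 ratios included 0. Radial glia, with high levels of all 3 genes, were 29.2% of barcodes in knockout against 22.0% in wild type. The oligodendrocyte lineage, with Ptch1 and Cdon within 2-fold of their radial glia level but Gas1 lower, was at 10.3% against 4.97%. The part of these shares in the differences was not tested.

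Of the P0 classes outside radial glia, inhibitory neurons had members called between genotypes, 2 of 2 measurable, against 5.44% of features. Cdon had 41 counts in 89 knockout barcodes and 10 in 92 wild-type barcodes, 107 CPM (76.4 to 144) against 24.8 CPM (11.9 to 45.6), a log2 ratio of 2.10 (1.08 to 3.27). It stayed between 1.61 and 2.43 under 9 other settings, and no knockout barcode held over 12.2% of the counts. The counts lay mostly in cells with caudal or lateral markers (Sp8, Prox1 and others), 27 in 49 knockout barcodes against 4 in 39 wild-type ones, while cells of medial type had 1 in 22 against 0 in 31. At E14.5 Cdon was low in inhibitory neurons of both libraries, 14.2 CPM in the one labelled knockout and 12.6 CPM in wild type. Ptch1 went the other way at P0, with 8 counts in knockout and 23 in wild type (log2 ratio -1.46, -2.83 to -0.24), but was at -0.67 with another random seed for the thinning and -0.80 with a stricter filter on barcodes, both within 2-fold. Medial-type cells were 22 of 89 in knockout and 31 of 92 in wild type, with Lhx6 at 221 and 372 CPM; the part of this in either difference was not tested.

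In intermediate progenitors (62 knockout and 70 wild-type barcodes), projection neurons and the oligodendrocyte lineage, no member was called at P0, of 2, 5 and 4 measurable, with backgrounds of 6.22%, 3.31% and 6.21%. Ptch1 in the oligodendrocyte lineage had a log2 ratio of 0.37 (-0.16 to 0.94) and Cdon of 0.39 (-0.19 to 1.01). Sufu in projection neurons was at 19.1 CPM in knockout and 10.7 CPM in wild type (log2 ratio 0.84, 0.01 to 1.71).

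**Figure D5:**
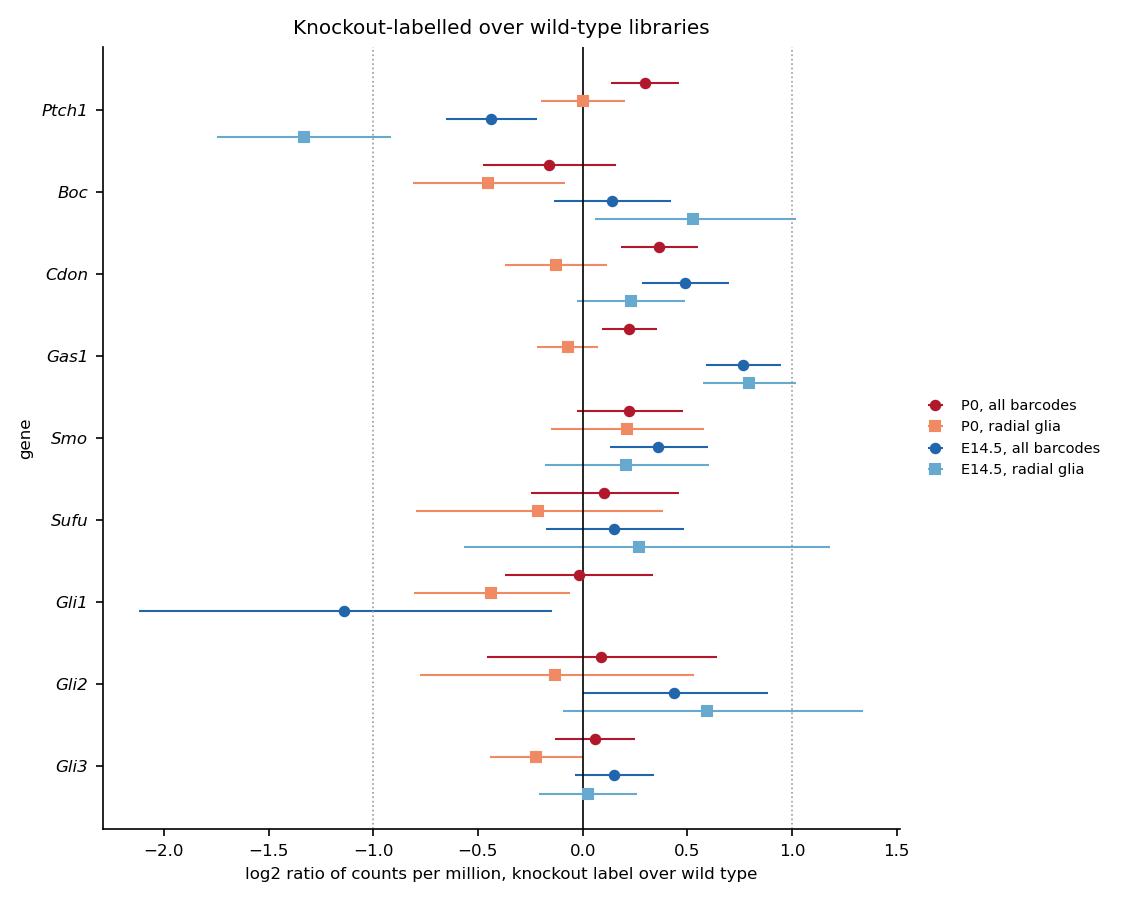
Log2 ratio of CPM, knockout label over wild type, over all barcodes (circles) and in radial glia (squares) at P0 and E14.5, with 95% intervals from counting error and dotted lines at 2-fold; Gli1 in E14.5 radial glia had too few counts for a ratio. All P0 points lie within 2-fold, and Ptch1 in E14.5 radial glia lies beyond it on the lower side.

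At E14.5 the library labelled knockout was compared with wild type, with the label in doubt and the animals of different sex. In radial glia Ptch1 was at 51.9 CPM (42.3 to 63.0) in the library labelled knockout and 130.4 CPM (106 to 159) in wild type, a log2 ratio of -1.33 (-1.75 to -0.91) that ranged from -1.37 to -1.05 over 11 other settings. It was the 1 of 8 genes called, where 12.3% of features were. Gas1 was higher by 0.79 (0.58 to 1.02) and Boc by 0.53 (0.059 to 1.02), both under 2-fold, beside a median of 0.10 over all features. Gli1 had 10 and 13 counts in these gates, too few for a ratio, and its 21 and 18 counts over all barcodes gave -1.14 (-2.12 to -0.15), the 1 of 9 called there (background 6.51%). Without the barcode with most Gli1 counts in each library that ratio was -0.95, under 2-fold.

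The radial glia gates of the E14.5 libraries also differed in regional makeup. Cells with cortical markers were 288 of 563 in the library labelled knockout and 26 of 69 in wild type, Emx1 was at 94.5 against 38.6 CPM and Nkx2-1 at 11.8 against 22.6 CPM. Among cells without cortical markers Ptch1 was at 82.7 CPM (65.5 to 103) in the library labelled knockout and 175 CPM (142 to 214) in wild type. Among those with them it was at 22.2 CPM (13.9 to 33.6) and 14.3 CPM (2.95 to 41.9), from 22 and 3 counts, with overlapping intervals. The part of the makeup in the whole-gate ratio was not tested. In projection neurons Gli2, Gli3, Cdon and Gas1 were called higher in the library labelled knockout, 4 of 8 against 6.51% of features, with 29 and 3, 39 and 7, 128 and 22, and 51 and 5 counts. The largest was Gas1 at 10.5 against 2.31 CPM (log2 ratio 2.19, 0.87 to 3.87), while Gli3 was at 0.18 with another seed and Cdon at 0.96 with the unthinned gate. All 4 were called higher in radial glia than in other barcodes of both E14.5 libraries, and markers of other classes were also higher in the projection neuron gate of the library labelled knockout than of wild type: Aldoc was at 7.63 against 0.924 CPM, Fabp7 at 88.5 against 61.5, Mki67 at 41.3 against 11.1, Gad2 at 19.0 against 1.85 and Lhx6 at 4.54 against 0. The part of these in the 4 differences was not tested. In inhibitory neurons none of 3 measurable members was called, with a background of 8.34%.

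The ligands were hardly seen. Shh had 0 counts in P0 knockout, 0 in P0 wild type, 9 in the library labelled E14.5 knockout and 1 in E14.5 wild type. Ihh had 1, 0, 2 and 0 counts in the same order. Dhh had 8, 9, 8 and 8 counts, and at P0 all of them, 8 in knockout and 9 in wild type, came from radial glia. Of the 9 Shh counts in the library labelled E14.5 knockout, 7 lay in inhibitory neurons, at 5.24 CPM (2.11 to 10.8). Cells of medial type held 5 of these 7. Inhibitory neurons of E14.5 wild type had 0. The exact 95% Poisson upper limits of the 0 counts of Shh at P0 are 0.415 CPM in knockout and 0.611 CPM in wild type.

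Of 59 further pathway genes listed by role, 51 were measurable at P0 over all barcodes, and 3 were called between genotypes, where 4.77% of all features were called. Gpr37l1, a receptor reported to interact with Ptch1 in mouse cerebellum, was at 13.0 CPM in P0 knockout and 4.80 in P0 wild type (log2 ratio 1.44, 0.84 to 2.08). Gpc3, a glypican that binds Hedgehog ligand, was at 24.2 and 9.93 CPM (log2 ratio 1.28, 0.86 to 1.72), and Ulk3, a kinase of Gli proteins, at 5.51 and 12.2 CPM (log2 ratio -1.15, -1.70 to -0.61). Ulk3 was lower at E14.5 too, at 3.96 CPM in the library labelled knockout and 10.3 in wild type, the 1 called of 52, below the 6.51% of all features. Gpr37l1 was concentrated in the oligodendrocyte lineage, at 85.1 CPM against 12.9 CPM in radial glia of P0 knockout. In the lineage itself, 31 were measurable and 2 called between genotypes, near the background of 6.21%: Gpr37l1 higher in knockout by 1.12 (0.23 to 2.13) and Ift122, a ciliary transport protein, lower with a ratio of -1.14 (-2.27 to 0.025). In P0 radial glia 0 of 45 measurable listed genes were called between genotypes (background 4.59%). Hhip was there at 24.4 CPM in knockout and 32.8 in wild type, a log2 ratio of -0.42 (-0.96 to 0.12). In E14.5 radial glia, 2 of 42 were called, below the background of 12.3%: Mycn, a Hedgehog target in cerebellar progenitors, was at 199 CPM in the library labelled knockout and 74.5 in wild type, and Arrb1, an arrestin, at 10.3 and 23.9.

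By age in radial glia, 3 listed genes were called higher and 3 lower of 39 measurable between the wild types, and 5 higher and 3 lower of 44 between the libraries labelled knockout. These shares are near or below the 14.2% and 23.3% of all features called in those pairs. Higher in both were Hhip, Olig2, a lineage factor that also served as a marker of the oligodendrocyte gate (209.7 against 45.2 CPM in wild types, 194 against 43.1 in the libraries labelled knockout) and Adcyap1r1, the receptor of the peptide PACAP, which acts against Hedgehog signalling through protein kinase A (log2 ratio 1.11, 0.72 to 1.52 and 2.19 (1.91 to 2.48)). Called between the wild types alone, Zfp423, Tmem107 and Ift88 were lower (-1.33, -1.25 and -1.12). Called between the libraries labelled knockout alone were Arrb1 and Gpr37l1, higher, and Gpc3, Mycn and Sfrp1, lower (-1.63, -1.39 and -1.14). Known targets went both ways: of 7 measurable, 2 were called higher and 1 lower (Zfp423) between the wild types, and 2 higher and 2 lower (Mycn, Sfrp1) between the libraries labelled knockout. In radial glia against the rest, 4 of 10 genes of the primary cilium and its transport were called higher in P0 knockout and 3 of 10 in P0 wild type, and 0 of 7 membrane regulators of Smo in either, where 13.5% and 14.5% of all features were. Among 19 listed regulators of Gli proteins, 4 were called higher and 1 lower in P0 knockout, and 3 higher and 3 lower in P0 wild type. Evc, which binds Smo at the cilium, was at 23.4 against 3.70 CPM in P0 knockout and 17.4 against 5.13 CPM in P0 wild type. Tulp3, a ciliary transport adaptor of the cilium list, was at 56.7 against 17.5 and 41.8 against 14.9 CPM. Over the whole list, 11 of 49 measurable genes were called higher and 5 lower in P0 knockout, and 12 and 7 of 46 in P0 wild type, beside those same backgrounds of features called higher. The share of all features called lower is not given for radial glia against the rest. The counts called lower therefore stand without a background, and nothing is read from them. At E14.5, 0 of 10 cilium genes were called higher in the library labelled knockout and 3 of 10 in wild type. The backgrounds there were 11.5% and 12.9%.

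In single radial glia thinned to 1500 counts, Gli1 and Ptch1 were also counted together. In P0 knockout 29 of 420 barcodes had Gli1, 100 had Ptch1 and 8 had both, where the product of the shares gives 6.90. In P0 wild type 24 of 230 had Gli1, 45 had Ptch1 and 7 had both, where the product gives 4.70. In the oligodendrocyte lineage 38 of 148 knockout and 8 of 52 wild-type barcodes had Ptch1 and none had Gli1.

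Across the 20 sums of library and gate with at least 50 barcodes, each gene's pattern was compared with 11395 others by Pearson's r of log2(CPM + 1). The sums share libraries, depth and cell classes, so r is a description over 20 points of 4 libraries. Closest to Ptch1 were Nacc2 (0.90), Qki (0.89), Gnai2 (0.87), to Gas1 Phgdh (0.94), 1810037I17Rik (0.94), Zfp36l1 (0.93), to Cdon 2810459M11Rik (0.87), Atxn7 (0.86), Dgkb (0.85) and to Boc Plagl1 (0.85), Bbx (0.84), Cisd3 (0.83). Closest to Smo were Prdx1 (0.93), Cd164 (0.92), Phactr2 (0.91) and to Sufu Rbbp9 (0.78), Ccm2 (0.77), Fbxw8 (0.74). Closest to Gli1 were Cybrd1 (0.92), Ccdc80 (0.88), Oat (0.88), to Gli2 Bard1 (0.90), Tead1 (0.88), Tead2 (0.88) and to Gli3 E2f5 (0.89), Lrp4 (0.88), Poc1a (0.88). Between the members r ran from 0.17 for Gli2 with Ptch1 to 0.87 for Gas1 with Gli3, and Gli1 with Ptch1 had 0.62.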

How the data were processed

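Single-cell RNA was captured with the Asteria kit from dissociated cortex of 1 mouse per group, with 15000 cells as input per sample, per the labels. The deposited matrices hold raw counts per gene and barcode. FastQC 0.12.1, Seurat 5, R 4.3.2 and the build GRCm39 are named in the submitters' processing notes; the aligner and any collapsing of reads to molecules are not stated in these sources. The files held 1456, 1073, 4119 and 622 barcodes for P0 knockout, P0 wild type, the library labelled E14.5 knockout and E14.5 wild type, with median counts of 5060, 4807, 2829 and 7345.5 after filtering. Depth limits rare genes: 3 counts over a library are 0.337 CPM in P0 knockout.

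Counts were summed per library and gate with Python 3.11.15, numpy 2.4.6, scipy 1.17.1 and pandas 2.3.3. Gates were set in barcodes thinned to 1500 counts, in a fixed order of classes. Not every overlap was left out. Radial glia could also pass the intermediate progenitor gate, and the oligodendrocyte lineage could also pass the radial glia gate. Intermediate progenitors could carry fewer than 5 projection neuron markers. Between 16.5% and 18.1% of barcodes stayed ungated, and no doublet caller was run. Sums have exact Poisson, shares Clopper-Pearson and ratios conditional binomial 95% intervals; no p-value was computed with 1 sample per group. The ratio and interval code was tested on simulated data. TMM factors came from edgeR 4.0.16. Calls needed a 2-fold difference and 30 counts between the compared sums; 3 counts stood in for a 0. Named were all 9 members, listed pathway genes past 2-fold or among Shh, Ihh, Dhh and Hhip (those past 2-fold between cell classes mostly as counts), and the 3 genes most like each member among those with at least 200 counts. 1 further listed gene is not reported here. Members and lists were chosen with earlier results of these data known. Alternatives were other barcode filters, TMM scaling, totals without mitochondrial, ribosomal protein and haemoglobin genes, thinning, no minimum count, 1.5-fold, leaving out the top barcode and 3 other gate settings; the comparisons by lineage, cortical markers and astrocyte markers were added after seeing the data.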

Additional observations from a re-analysis of the deposited data

Results flagged for a closer look

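Ptch1 over all barcodes was higher in P0 knockout than in P0 wild type by 0.30 on the log2 scale (0.13 to 0.46), while at E14.5 the library labelled knockout was below wild type, at -0.44 (-0.65 to -0.22). Boc in radial glia was at -0.45 (-0.81 to -0.084) at P0 and at 0.53 (0.059 to 1.02) at E14.5 for the same comparison. Both were singled out because the ages point opposite ways with intervals on either side of 0. With 1 library per group the difference between the ages was not tested, and the E14.5 label is in doubt.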

How the results depend on the processing

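No paired analysis was possible because each group holds 1 library and no replicate numbers exist. For the same reason no replicate could be left out. Of 101 recomputed counts of called members, 93 stayed within 1.5 times of the value reported, 8 moved and 0 reversed. Of 2833 recomputed log2 ratios of single members, 2686 moved by less than their counting interval, 146 moved further and 1 reversed, where only a ratio past 2-fold counts as reversed. A further 123 recomputed ratios that were not past 2-fold changed sign, 30 of them by more than their counting interval, for example Ptch1 in the oligodendrocyte lineage over radial glia with the unthinned gate (0.35 in P0 knockout, against -0.36) and Smo in radial glia of P0 wild type over E14.5 wild type after thinning (0.46, against -0.70). The reversal was Cdon in astrocyte-marker over other radial glia of P0 knockout, at 0.40 with the gate set on unthinned counts, against -1.17. The moved counts were as follows. In the library labelled E14.5 knockout over E14.5 wild type, all barcodes, 1 member was called, but 2 after thinning, 2 at 1.5-fold and 0 without the top barcode. In radial glia of that comparison 1 was called, but 2 with no minimum count and 3 at 1.5-fold. In radial glia of P0 wild type over E14.5 wild type 1 was called, but 0 after thinning, where Gli1 no longer reached 30 counts, and 5 at 1.5-fold. In radial glia over the rest of E14.5 wild type 7 were called, but 4 after thinning. Among the moved ratios, 54 moved under thinning and 49 under the unthinned gate. TMM scaling shifted the median of all features by over 0.1 in some comparisons, for example to -0.16 for radial glia over the rest in E14.5 wild type. Thinned sums hold few counts, which limits the rarer genes Gli1, Gli2 and Sufu most.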
